A study of Mus musculus with 16 samples.

Results

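The transcripts examined here were those of 10 extracellular matrix proteoglycans and their close relatives in mouse ventricle: decorin (Dcn), lumican (Lum), biglycan (Bgn), fibromodulin (Fmod), osteoglycin (Ogn), asporin (Aspn), prolargin (Prelp), versican (Vcan), aggrecan (Acan) and podocan (Podn). They were chosen by gene symbol. Each symbol was found once among the 24421 entries of the count table, and all 10 were among the 13522 genes with enough counts to be tested. The libraries came from C57BL/6N mice labelled male that had surgery at 9 to 10 weeks of age and whose ventricles were taken 5 weeks later. JP2CR TAC mice were homozygous for JP2CR, a Jph2 knock-in without the codons of junctophilin-2 residues 563 to 568, and had transverse aortic constriction (TAC), a band around the aorta that raises the pressure the left ventricle works against. JP2CR sham mice carried the same allele and had the control operation. WT TAC and WT sham mice had the wild-type Jph2 gene and the constriction or the control operation. Each of the 4 groups had 4 libraries of polyadenylated RNA, and the allele is present in the whole animal. The deletion is meant to make junctophilin-2, the protein that ties the T-tubule to the sarcoplasmic reticulum of heart muscle cells, resistant to the protease calpain.

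Small leucine-rich repeat proteoglycans are secreted proteins, made in the heart chiefly by fibroblasts, that bind collagen fibrils and set how thick the fibrils grow and how they are spaced. Decorin, biglycan and asporin form class I, fibromodulin, lumican and prolargin class II, osteoglycin class III, and podocan a class of its own. Several of them also hold growth factors such as TGF-beta, and free biglycan is a ligand of Toll-like receptors. Versican and aggrecan belong to another family, the large chondroitin sulfate proteoglycans that bind hyaluronan and form a hydrated gel that is cut by ADAMTS proteases.

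Most of these genes lie beside a relative in the genome. In GENCODE M21 coordinates (GRCm38, the mm10 build of the submitters' processing notes), Aspn (chr13:49544443-49567565, plus strand) and Ogn (chr13:49608046-49624501, plus strand) stood 40.5 kb apart with osteomodulin (Omd) between them and Ecm2 on the outer side of Aspn. Dcn (chr10:97479609-97518143) and Lum (chr10:97565128-97572703) were 47 kb apart and were followed by Kera and Epyc. Prelp (chr1:133910304-133921414, minus strand) and Fmod (chr1:134037254-134048277, plus strand) were 116 kb apart. Vcan (chr13:89655312-89742509, minus strand) was next to Hapln1, Acan (chr7:79053483-79115099) was next to Hapln3, and Bgn (chrX:73483602-73495933) and Podn (chr4:108014791-108096445, minus strand) had no member beside them. Exons of Prelp overlap the antisense gene Gm15851, and the span of Vcan holds the antisense genes Gm16318 and Gm4117. The strand setting used for counting is not given in the sources used here, so reads of these pairs may not have been told apart. The span of Podn also overlaps Scp2 on the same strand and holds the antisense gene Mir6397, but no other gene overlaps the exons of Podn.

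The 250 bases before the RefSeq start (GRCm38.p6) are shown for Aspn and Ogn, because these neighbours moved in opposite directions after TAC, and for Bgn, the member that changed the make-up of the group most. Capitals mark every match, on either strand, to 6 motifs: TATAAA, the AP-1 site TGANTCA, the TEAD site GGAATG, the GC box GGGCGG, the SMAD half-site CAGAC and the CArG box.
Aspn: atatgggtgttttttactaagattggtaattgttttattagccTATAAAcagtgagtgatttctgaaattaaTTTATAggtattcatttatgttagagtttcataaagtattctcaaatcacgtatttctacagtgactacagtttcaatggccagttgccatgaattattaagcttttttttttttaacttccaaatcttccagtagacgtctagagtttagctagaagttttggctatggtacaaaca
Ogn: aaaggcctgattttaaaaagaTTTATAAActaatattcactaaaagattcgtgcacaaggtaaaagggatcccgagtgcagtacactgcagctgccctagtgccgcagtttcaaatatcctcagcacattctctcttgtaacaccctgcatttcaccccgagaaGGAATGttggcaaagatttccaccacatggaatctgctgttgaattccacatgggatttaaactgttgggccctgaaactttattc
Bgn: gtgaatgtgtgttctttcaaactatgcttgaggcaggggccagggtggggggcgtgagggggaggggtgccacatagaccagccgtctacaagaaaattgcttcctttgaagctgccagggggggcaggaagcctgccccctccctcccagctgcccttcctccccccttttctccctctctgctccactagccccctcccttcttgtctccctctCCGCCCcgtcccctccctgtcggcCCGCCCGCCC
Aspn (chr13:49544193-49544442) held TATAAA on each strand, at positions -207 and -178 from the start. Ogn (chr13:49607765-49608014) held overlapping TATAAA matches on the opposite strands at -229 and -227 and a GGAATG at -86. Bgn (chrX:73483351-73483600) held 3 GC boxes on the minus strand at -34, -10 and -6, of which the last 2 overlap. Of all 32851 RefSeq windows of the same length, 12.4% held TATAAA, 12.6% GGAATG, 32.7% GGGCGG, 6.75% TGANTCA, 42.2% CAGAC and 1.47% the CArG box. G and C made up 30.0% of the bases before Aspn, 42.0% before Ogn and 64.4% before Bgn. Windows were found for 8 of the 10 members, not for Dcn or Lum.

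Total counts ran from 9966782 to 16609732 per library. Several libraries stood apart. Xist, the RNA of the inactive X chromosome, was at 189 and 196 CPM (a library's counts scaled to a common total with TMM factors) in JP2CR sham 3 and 4 with no count from 4 Y-linked genes, and at 141 CPM together with 118 CPM of Y-linked RNA in JP2CR TAC 4, while the other 13 libraries had at most 0.266 CPM. These 3 libraries therefore go against the label male, and the 10 members' TAC calls that change without them are given both ways. JP2CR TAC 3 lay between JP2CR TAC 1 and 2 for 90.6% of 784 genes that differed by over 1.5-fold between those libraries, and WT TAC 3 lay between WT TAC 1 and 2 for 90.7% of 841 genes. For the same genes JP2CR TAC 4 lay between those libraries in 67.3% and WT TAC 4 in 83%, and WT sham 3 and 4 lay between WT sham 1 and 2 in 83.8% and 84.1% of 314 genes. The labels list the TAC 3 libraries as separate samples but name no animals, so that the n of 4 in these groups rests on that listing.

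Per kilobase of exon, decorin and biglycan were the most abundant of the 10 transcripts in each of the 16 libraries, lumican and osteoglycin took ranks 3 and 4, versican rank 9 and aggrecan rank 10. TAC changed the mixture mainly through biglycan. Biglycan made up 39.7% ± 1.98 of the summed CPM per kilobase in JP2CR TAC hearts and 21.1% ± 2.58 in JP2CR sham hearts, and 39.9% ± 3.18 in WT TAC hearts and 19.5% ± 0.552 in WT sham hearts (SD, n = 4 each). Decorin made up 39.8% ± 1.35 in JP2CR TAC and 51.8% ± 3.36 in JP2CR sham hearts, and 39.6% ± 2.86 in WT TAC and 53.3% ± 0.423 in WT sham hearts. Osteoglycin's share was 5.87% ± 0.67 against 10.9% ± 2.25 in JP2CR hearts and 5.49% ± 0.331 against 11.1% ± 0.859 in WT hearts, TAC against sham. Within a library, the ratio of biglycan to decorin per kilobase was 0.899 to 1.08 in JP2CR TAC and 0.353 to 0.528 in JP2CR sham libraries, and 0.881 to 1.24 in WT TAC and 0.354 to 0.38 in WT sham libraries. TAC and sham libraries did not overlap in this ratio in either genotype. The summed level of the 10 transcripts was 906 ± 60.9 CPM per kilobase in JP2CR TAC and 655 ± 109 in JP2CR sham hearts, and 942 ± 146 in WT TAC and 672 ± 20.4 in WT sham hearts.

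**Figure D1:**
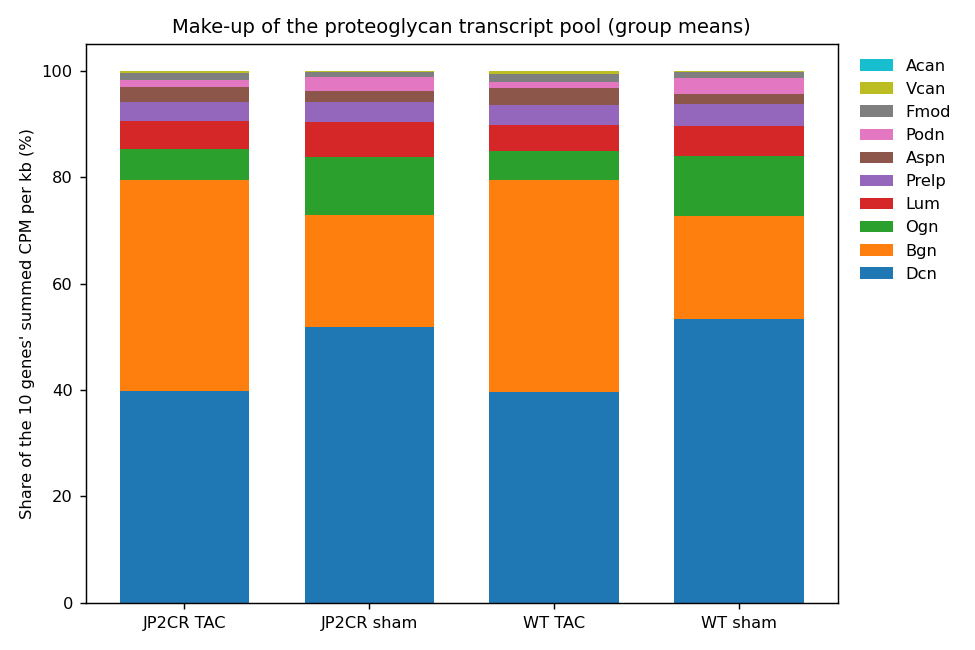
Stacked bars give each gene's mean share, in percent, of the summed CPM per kilobase of exon of the 10 genes in JP2CR TAC, JP2CR sham, WT TAC and WT sham hearts (4 libraries each). Biglycan makes up 39.7% and 39.9% in the TAC groups against 21.1% and 19.5% in the sham groups, and decorin 39.8% and 39.6% against 51.8% and 53.3%.

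The first question was which of these genes TAC changed. In JP2CR hearts 5 of the 10 rose after TAC (Bgn, Vcan, Aspn, Fmod and Prelp) and Ogn fell. In WT hearts 6 rose (the same 5 and Acan) and 2 fell (Ogn and Podn). Acan had enough counts to be tested only through TAC libraries, so its place in this count depends on them. When 1 CPM in 8 libraries was required, 5 members rose in WT. Decorin and lumican passed the threshold in neither genotype. The call is a Benjamini-Hochberg adjusted p under 0.05 over all tested genes in edgeR's quasi-likelihood test. By this rule 41.5% of all tested genes were called in JP2CR (20.7% higher and 20.7% lower) and 41.9% in WT (21.1% higher and 20.8% lower), so calls as such were common. The TAC and sham libraries did not overlap for 4 members in JP2CR (Bgn, Aspn, Prelp and Vcan), where this held for 34.1% of all tested genes, and for 6 in WT (Bgn, Fmod, Ogn, Aspn, Vcan and Podn), where it held for 42.0%. The median log2 fold change of the 10 members was 0.61 in JP2CR and 0.72 in WT, beside 0.0 over all tested genes in each genotype. RNA from whole ventricle was measured, so a change in the number of cells that make a transcript and a change in transcript per cell cannot be told apart.

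**Figure D2:**
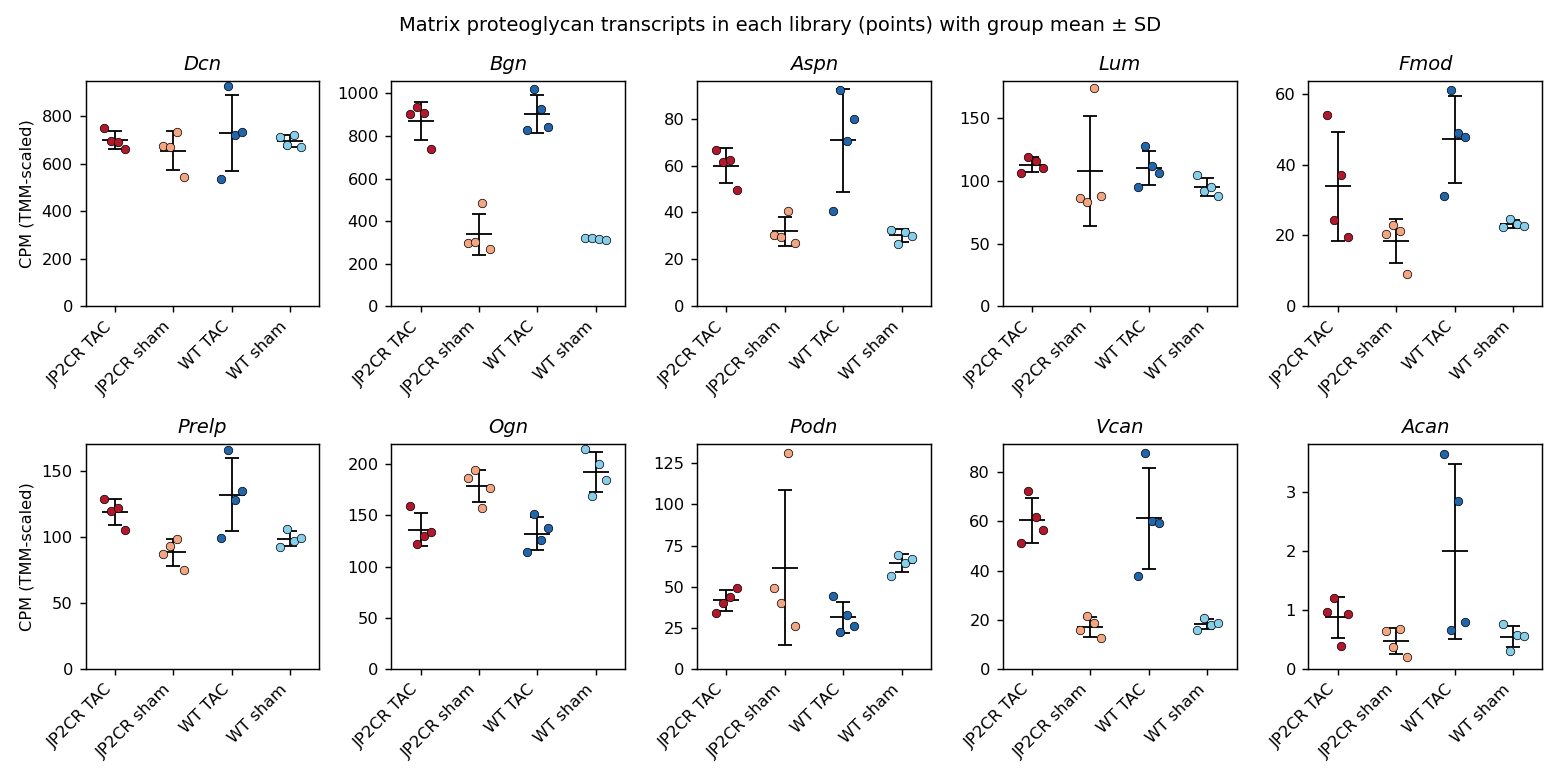
Each panel gives CPM (TMM-scaled, linear axis from 0) of one gene in the 16 libraries, with JP2CR TAC, JP2CR sham, WT TAC and WT sham from left to right; points are libraries, the horizontal mark is the mean and the bars are ± 1 SD (n = 4). Biglycan, asporin and versican are higher in every TAC library than in every sham library of the same genotype, and JP2CR sham 3 is the highest JP2CR sham library for biglycan, lumican and podocan.

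Among class I, biglycan rose most. Its level was 901, 937, 906 and 739 CPM in JP2CR TAC libraries, against 296, 304, 483 and 271 CPM in JP2CR sham libraries. In WT it was 826, 1019, 925 and 841 CPM after TAC, against 319, 321, 317 and 312 CPM after sham. The groups did not overlap in either genotype, and 1 sham library, JP2CR sham 3, stood above its group. The fold change was 2.57 in JP2CR (log2 1.36 ± 0.14 SE, edgeR adjusted p = 7.72e-07) and 2.84 in WT (1.51 ± 0.14, adjusted p = 1.63e-07).

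Asporin, which like decorin binds collagen but carries no glycosaminoglycan chain, rose 1.86-fold in JP2CR (log2 0.90 ± 0.19, edgeR adjusted p = 0.000903) and 2.35-fold in WT (1.23 ± 0.18, adjusted p = 4.2e-05). It was at 66.5, 61.7, 62.2 and 49.5 CPM in JP2CR TAC libraries, against 30.4, 29.7, 40.8 and 27.0 CPM in JP2CR sham libraries. WT TAC libraries had 40.7, 92.0, 70.6 and 79.9 CPM, against 32.7, 26.5, 31.8 and 30.1 CPM in WT sham libraries. The groups did not overlap, but WT TAC 1 was closer to the sham libraries than to WT TAC 2.

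Decorin, the most abundant of the 10 transcripts per kilobase after sham, showed no call. It was at 749, 696, 690 and 659 CPM in JP2CR TAC libraries, against 672, 670, 734 and 542 CPM in JP2CR sham libraries. WT TAC libraries had 536, 927, 718 and 733 CPM, against 713, 678, 718 and 669 CPM in WT sham libraries. The WT TAC libraries lay on both sides of the WT sham libraries. The 95% intervals of the log2 fold change ran from -0.15 to 0.34 in JP2CR and from -0.18 to 0.31 in WT, so changes inside these bounds remain possible.

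In class II, prolargin rose by the same small amount in both genotypes, fibromodulin rose with a wide spread, and lumican's call depended on a single library. Prolargin, which anchors basement membranes to collagen, was at 129, 120, 122 and 105 CPM in JP2CR TAC libraries, against 86.8, 93.0, 98.5 and 74.6 CPM in JP2CR sham libraries. WT TAC libraries had 99.3, 166, 128 and 135 CPM, against 92.2, 106, 97.1 and 99.2 CPM in WT sham libraries. The groups were apart in JP2CR, and in WT only WT TAC 1 fell within the sham range. The fold change was 1.34 in each genotype (log2 0.43 ± 0.12 in JP2CR, edgeR adjusted p = 0.00738, and 0.42 ± 0.12 in WT, adjusted p = 0.00743).

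Fibromodulin, which takes part in collagen cross-linking, had 54.1, 24.5, 37.1 and 19.7 CPM in JP2CR TAC libraries, against 20.3, 22.9, 21.3 and 9.2 CPM in JP2CR sham libraries. In WT it had 31.1, 61.0, 48.9 and 47.8 CPM after TAC, against 22.3, 24.7, 23.1 and 22.6 CPM after sham. The groups were apart in WT and overlapped in JP2CR, where JP2CR TAC 4 was below 3 sham libraries. The change was 1.81-fold in JP2CR (log2 0.85 ± 0.28, edgeR adjusted p = 0.0216) and 2.04-fold in WT (1.03 ± 0.27, adjusted p = 0.0055). The JP2CR call was lost without JP2CR TAC 1 (log2 0.53, adjusted p = 0.113), without JP2CR TAC 3 (0.81, adjusted p = 0.0518) and without JP2CR sham 4 (0.66, adjusted p = 0.0602), as well as with limma voom (adjusted p = 0.0502) and when only the JP2CR libraries were fitted (adjusted p = 0.067) and without JP2CR TAC 3 and WT TAC 3 together (adjusted p = 0.0637).

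Lumican had 106, 119, 116 and 110 CPM in JP2CR TAC libraries, against 86.6, 82.9, 174 and 87.8 CPM in JP2CR sham libraries. Every JP2CR TAC library was above 3 of the sham libraries and below JP2CR sham 3. In WT lumican had 95.2, 128, 112 and 106 CPM after TAC, against 105, 92.0, 94.9 and 88.1 CPM after sham, with overlap. The log2 fold change was 0.06 ± 0.18 in JP2CR (edgeR adjusted p = 0.824) and 0.21 ± 0.18 in WT (adjusted p = 0.353). Without JP2CR sham 3 it was 0.40 ± 0.08 in JP2CR (adjusted p = 0.00108) and 0.21 ± 0.08 in WT (adjusted p = 0.0327), and without the 3 libraries with Xist it was 0.43 ± 0.10 (adjusted p = 0.00379) and 0.21 ± 0.08 (adjusted p = 0.0353). Lumican was also called in WT when only the WT libraries were fitted (0.22 ± 0.08, adjusted p = 0.0389).

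Osteoglycin and podocan went the other way. Osteoglycin, also called mimecan, had 159, 122, 130 and 134 CPM in JP2CR TAC libraries, against 187, 194, 157 and 177 CPM in JP2CR sham libraries. In WT it had 114, 151, 126 and 138 CPM after TAC, against 215, 169, 200 and 185 CPM after sham. JP2CR TAC 1 and JP2CR sham 3 were the only overlapping pair, and the WT groups were apart. Osteoglycin fell to 0.763 of the sham level in JP2CR (log2 -0.39 ± 0.10, edgeR adjusted p = 0.00384) and to 0.688 of it in WT (-0.54 ± 0.10, adjusted p = 0.000254). Within a library, the ratio of asporin to its neighbour osteoglycin per kilobase was 0.402 to 0.553 in JP2CR TAC and 0.167 to 0.282 in JP2CR sham libraries, and 0.39 to 0.666 in WT TAC and 0.166 to 0.177 in WT sham libraries. Omd, which lies between them, had log2 0.35 ± 0.26 in JP2CR (adjusted p = 0.305) and 0.59 ± 0.26 in WT (adjusted p = 0.0777). Ecm2, on the far side of Aspn, had 0.12 ± 0.15 (adjusted p = 0.555) and 0.14 ± 0.15 (adjusted p = 0.489).

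Podocan, known in mouse as a restraint on smooth muscle cell growth, varied widely among JP2CR sham libraries. It had 33.8, 40.3, 43.9 and 49.2 CPM in JP2CR TAC libraries, against 49.3, 40.1, 131 and 25.9 CPM in JP2CR sham libraries. In WT it had 44.1, 22.2, 33.0 and 26.3 CPM after TAC, against 56.7, 69.4, 64.5 and 66.9 CPM after sham. The WT groups were apart and the JP2CR sham libraries spanned all JP2CR TAC libraries. Podocan fell to 0.486 of the sham level in WT (log2 -1.04 ± 0.34, edgeR adjusted p = 0.021), while the JP2CR value was -0.58 ± 0.34 (adjusted p = 0.18). The WT call was lost without WT TAC 2 (log2 -0.90, adjusted p = 0.0673), without WT TAC 4 (-0.97, adjusted p = 0.0578) and without JP2CR TAC 3 and WT TAC 3 together (-1.06, adjusted p = 0.0514), with values close to that of all libraries. The WT value was -1.04 ± 0.18 without JP2CR sham 3 (edgeR adjusted p = 0.000184). Without the 3 libraries with Xist it was -1.05 ± 0.15 (edgeR adjusted p = 2.7e-05). In JP2CR the value was 0.11 without JP2CR sham 3, the opposite direction, and -0.82 without JP2CR sham 4 (adjusted p = 0.0391).

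Of the hyaluronan-binding pair, versican rose in both genotypes, whereas aggrecan was called in WT and not in JP2CR, a difference between genotypes that was not itself called. Versican had 51.2, 72.4, 61.7 and 56.4 CPM in JP2CR TAC libraries, against 15.7, 21.7, 18.6 and 12.5 CPM in JP2CR sham libraries. In WT it had 37.7, 87.8, 60.2 and 59.5 CPM after TAC, against 15.8, 20.6, 18 and 18.6 CPM after sham. No TAC library reached down to a sham library. The fold change was 3.51 in JP2CR (log2 1.81 ± 0.20, edgeR adjusted p = 2.68e-06) and 3.36 in WT (1.75 ± 0.20, adjusted p = 2.37e-06).

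Aggrecan, the main proteoglycan of cartilage, was close to the limit of detection. Raw counts were 13, 15, 5 and 14 in JP2CR TAC libraries, against 9, 4, 11 and 2 in JP2CR sham libraries. In WT they were 47, 10, 34 and 10 after TAC, against 9, 5, 7 and 8 after sham. WT TAC 1 and WT TAC 3 held most of the WT TAC counts, and WT TAC 2 (0.664 CPM) lay within the WT sham range of 0.31 to 0.755 CPM. The log2 fold change was 0.79 ± 0.59 in JP2CR (edgeR adjusted p = 0.308) and 1.86 ± 0.52 in WT (adjusted p = 0.0081), and between 1.38 and 2.17 in WT when 1 library at a time was left out.

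**Figure D3:**
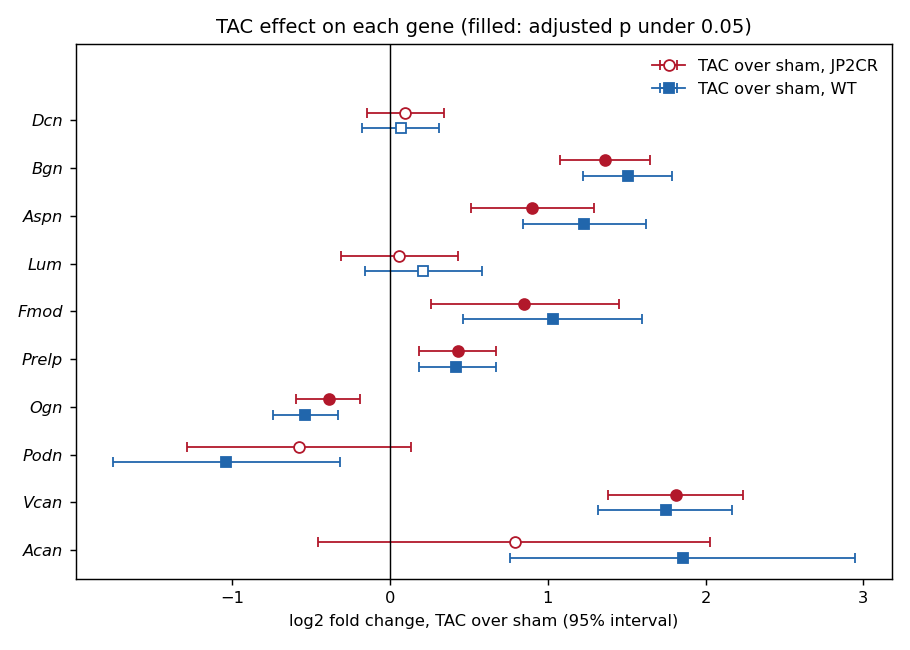
Log2 fold change of TAC over sham (horizontal axis) for each of the 10 genes, in JP2CR hearts (circles) and WT hearts (squares), with 95% intervals; filled symbols have an adjusted p under 0.05. Versican and biglycan lie between 1.36 and 1.81, osteoglycin and podocan lie below 0, and the intervals of the genotypes overlap for every gene.

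The second question was whether JP2CR altered this response. None of the 10 genes was called for the difference between the genotypes' TAC effects, where 0.118% of all tested genes were called (0.0887% higher and 0.0296% lower), and none had an unadjusted p under 0.05 in edgeR. DESeq2 called none either. The differences in log2 fold change, JP2CR minus WT, ran from -1.07 ± 0.81 for aggrecan (edgeR adjusted p = 0.705) to 0.46 ± 0.48 for podocan (adjusted p = 0.803). Podocan's difference depended on single libraries and ran from 0.23 to 1.16 when 1 library at a time was left out. Its lowest adjusted p over the alternative edgeR, DESeq2 and limma voom fits was 0.0562. The 95% interval of the difference was -0.54 to 0.25 for biglycan, -0.53 to 0.66 for versican, -0.88 to 0.21 for asporin and -0.14 to 0.44 for osteoglycin, so these data do not show that the genotypes responded alike within tighter bounds.

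Direct comparisons of the genotypes gave no call among the 10 members with edgeR or with DESeq2. After TAC, JP2CR against WT, 0.651% of all tested genes were called (0.362% higher and 0.288% lower), the groups overlapped for all 10 members (8.09% of tested genes did not overlap), and the sole member with an unadjusted p under 0.05 was aggrecan (log2 -1.16 ± 0.48, edgeR adjusted p = 0.316). Fibromodulin averaged 33.8 ± 15.4 CPM in JP2CR TAC hearts and 47.2 ± 12.3 CPM in WT TAC hearts (SD, n = 4 each; log2 -0.49 ± 0.26, edgeR adjusted p = 0.475). After sham, 0.0961% of all tested genes were called, the groups overlapped for all 10 members (4.76% of tested genes did not overlap), and no member had an unadjusted p under 0.05, with log2 differences between -0.31 ± 0.29 for fibromodulin and 0.19 ± 0.18 for lumican. The median over the 10 members was -0.06 after TAC and -0.08 after sham, beside 0.0 over all tested genes.

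Within a group, many but not all members deviated together between libraries. In WT TAC 1, 8 of the 10 were below their group mean (median -0.30 in log2), and the exceptions were podocan and aggrecan. In WT TAC 2, 8 were above it (median 0.29) and the exceptions were again podocan and aggrecan. In JP2CR sham 3, 9 were above the mean and osteoglycin was below it, and in JP2CR sham 4 all 10 were below it (median -0.27). The summed CPM of 12 fibroblast markers was lowest in WT TAC 1 (3003) and highest in WT TAC 2 (4073) among WT TAC libraries, and highest in JP2CR sham 3 (3793) and lowest in JP2CR sham 4 (3108) among JP2CR sham libraries. The summed CPM of 8 atrial markers was 326, 99.6, 214 and 119 in WT TAC 1 to 4. In JP2CR sham 1 to 4 it was 1573, 1147, 2281 and 159. Podocan had the same order of libraries as this atrial sum in both groups. That order was also shared in WT sham and differed in JP2CR TAC libraries. The part of fibroblast content or atrial tissue in these deviations was not tested.

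**Figure D4:**
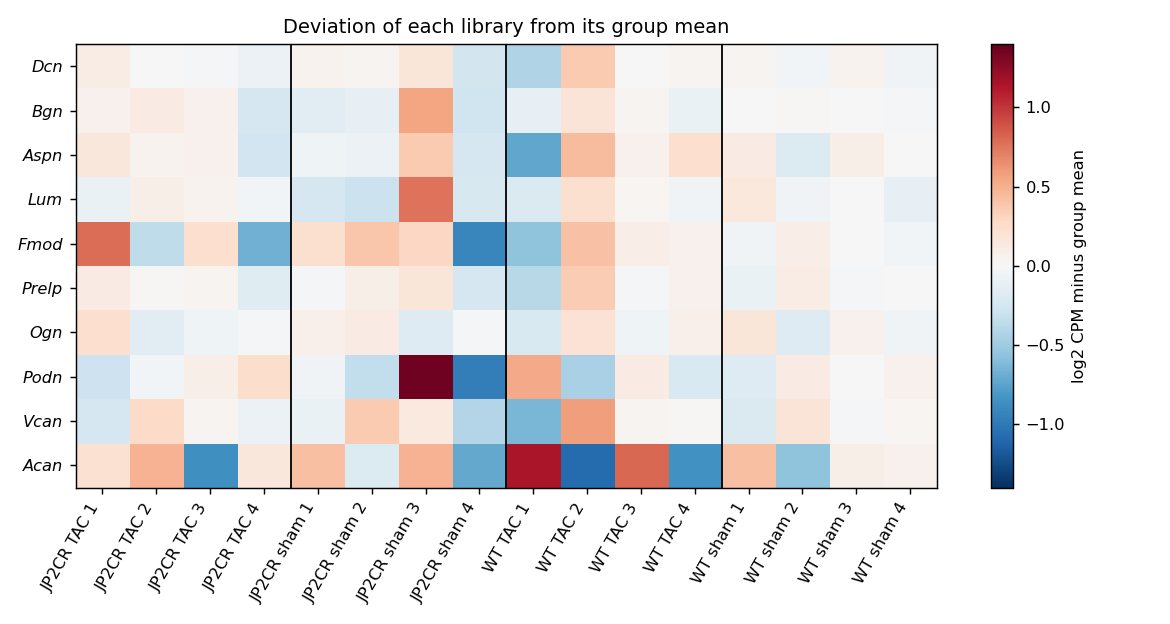
Colour gives log2 CPM minus the mean of the library's own group for each gene (rows) and library (columns, in the order JP2CR TAC, JP2CR sham, WT TAC, WT sham), red above and blue below the mean. Podocan reaches 1.36 in JP2CR sham 3 and -0.97 in JP2CR sham 4, and podocan and aggrecan have the opposite colour to the other genes in WT TAC 1 and WT TAC 2.

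Over the 16 libraries, deviations of decorin from its group means correlated with those of prolargin (Pearson r 0.92) and asporin (r 0.91), and those of lumican with biglycan (r 0.90). These are descriptions of libraries that share depth and tissue sampling. Osteoglycin had r 0.52 with decorin, 0.46 with fibromodulin, 0.45 with asporin, 0.36 with prolargin and 0.16 with versican. It had r -0.20 with lumican, -0.18 with biglycan, -0.31 with aggrecan and -0.6 with podocan. Over the 13 libraries without Xist above 1 CPM, osteoglycin had r 0.43 with lumican and 0.35 with biglycan. There it had 0.73 with decorin, 0.75 with fibromodulin, 0.74 with asporin, 0.53 with prolargin and 0.18 with versican. With aggrecan and podocan it had -0.32 and -0.84 there. Decorin and podocan had r 0.01 over all 16 libraries and -0.89 over the 13 libraries without Xist above 1 CPM, and asporin and podocan -0.02 and -0.89. Podocan had r 0.62 with lumican and 0.61 with biglycan over all 16 libraries, and -0.59 with each over the 13. Among 11998 other genes whose mean log2 CPM was 1 or more, the deviations most like decorin's were those of Ecm2 (r 0.96), Cilp (0.93) and Medag (0.92), which had 0.98, 0.94 and 0.90 over the 13 libraries. Cilp, a cartilage intermediate layer protein also made by cardiac fibroblasts, was likewise the nearest gene to prolargin (r 0.96), followed by Col12a1 (0.93) and Dse (0.91), and was second for asporin (0.90) after Tmod2 (0.91). The nearest genes to biglycan were Tgfbr2 (0.96), the type II TGF-beta receptor, Mfap4 (0.92) and Agpat4 (0.92), of which Tgfbr2 had 0.94, Mfap4 0.69 and Agpat4 0.53 over the 13 libraries. Lumican's were Jun (0.95) and Atf3 (0.94), early stress-response transcription factors, and Ptgis (0.93), with 0.72, 0.74 and 0.55 over the 13 libraries. Versican was nearest to Meox1 (0.91), a transcription factor of activated fibroblasts, podocan to Ahctf1 (0.93, and 0.74 over the 13 libraries), and aggrecan to Chst4 (0.91).

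The genes around these proteoglycans were taken from lists of their partners and enzymes. Among all tested genes, 20.7% rose and 20.7% fell in JP2CR, and 21.1% rose and 20.8% fell in WT. List counts here and in the next paragraphs stand beside these shares, and a count near them is not read as a response of its list. Of 6 fibrillar collagen genes, whose products form the fibrils that the small proteoglycans bind, 5 rose in JP2CR (median log2 0.99) and 5 in WT (median 0.92), with Col1a1 at 1.20 ± 0.11 and 1.19 ± 0.11, Col5a2 at 1.30 ± 0.14 and 1.54 ± 0.14, and Col5a3 not called. Of 7 growth factors that small proteoglycans bind, 4 rose and 1 fell in each genotype. The TGF-beta genes rose, led by Tgfb2 at 1.57 ± 0.11 in JP2CR and 1.67 ± 0.11 in WT, and Pdgfa fell by 0.53 in JP2CR and by 0.46 in WT on the log2 scale. Of 8 receptors, 6 rose and 1 fell in JP2CR (5 and 1 without the 3 libraries with Xist) and 6 rose and 0 fell in WT. Tlr4, a receptor of free biglycan, rose by 1.46 ± 0.12 in JP2CR and 1.70 ± 0.12 in WT, and Met, a receptor that decorin binds, by 1.46 ± 0.19 and 1.60 ± 0.18. Kdr, the endothelial VEGF receptor, fell in JP2CR (-0.44 ± 0.16, edgeR adjusted p = 0.0315) and was at -0.06 ± 0.16 in WT (adjusted p = 0.789), and no receptor was called lower in JP2CR without the TAC 3 libraries.

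Enzymes that build the sugar chains act in steps, from the linker on the core protein to the modified chain. Of 14 tested enzymes that polymerise and modify chondroitin and dermatan sulfate, 7 rose in JP2CR (6 without the 3 libraries with Xist) and 4 in WT, and none fell. Dsel, a dermatan sulfate epimerase, rose by 0.78 ± 0.13 in JP2CR and 0.77 ± 0.13 in WT, and the chondroitin polymerising factors Chpf by 0.52 ± 0.09 and 0.59 ± 0.09 and Chpf2 by 0.53 ± 0.10 and 0.48 ± 0.10. Of 6 enzymes that build or modify the linker to the core protein, Xylt1 alone was called, in JP2CR (0.72 ± 0.24, edgeR adjusted p = 0.0231, against 0.24 ± 0.24 in WT, adjusted p = 0.454). This list had no call without the 3 libraries with Xist or without the TAC 3 libraries. Of 7 tested keratan sulfate enzymes, 2 rose and 1 fell in JP2CR and 1 rose and 1 fell in WT. Chst4, a sulfotransferase, fell by 0.92 in JP2CR and by 1.88 in WT. Of 8 genes that supply sugar precursors and sulfate, 1 rose in JP2CR and 1 rose and 1 fell in WT, where Slc26a2, the sulfate transporter, rose by 0.67 ± 0.22.

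Among genes that cut or bind the large proteoglycans, 4 of 7 ADAMTS proteases rose in each genotype (5 in WT without the 3 libraries with Xist). Adamts20 rose by 1.56 ± 0.36 in JP2CR and 3.51 ± 0.37 in WT, and Adamts1 by 0.94 ± 0.17 and 0.65 ± 0.17. Adamts4 was at -0.17 ± 0.65 in JP2CR (edgeR adjusted p = 0.863) and rose by 2.09 ± 0.60 in WT (adjusted p = 0.00987). Of 11 tested genes of hyaluronan and its partners, 5 rose and 1 fell in JP2CR and 4 rose and 1 fell in WT. Without the 3 libraries with Xist, 12 were tested, of which 4 rose and 1 fell in JP2CR and 5 rose and 3 fell in WT. The receptor Cd44 rose by 1.27 ± 0.16 in JP2CR and 0.73 ± 0.16 in WT, and Cemip, which breaks hyaluronan down, by 3.70 ± 0.71 and 3.43 ± 0.86 from low levels. The synthase Has2 was at 0.72 ± 0.38 in JP2CR (adjusted p = 0.136) and fell by 1.15 in WT (adjusted p = 0.0144), whereas Has3 fell by 0.92 in JP2CR (adjusted p = 0.00122) and was at -0.06 ± 0.19 in WT (adjusted p = 0.817). No tested gene of the 12 lists was called for the difference between the genotypes' TAC effects, but without the 3 libraries with Xist 1 hyaluronan gene and 1 cell surface gene were. For JP2CR against WT after TAC, Lyve1 of the hyaluronan list alone was called (higher, 0.92 ± 0.17, edgeR adjusted p = 0.0218). Of all tested genes 0.362% were called higher there. Without the 3 libraries with Xist, 1 hyaluronan gene and 3 cell surface genes were called higher, and without the TAC 3 libraries none was.

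Of 7 other tested small leucine-rich repeat genes, 1 rose and 1 fell in JP2CR and 3 fell in WT. Epyc, a neighbour of Lum, fell by 2.08 in JP2CR and by 2.36 in WT from about 1 CPM, and Chad, chondroadherin, was at -0.84 ± 0.55 in JP2CR (edgeR adjusted p = 0.239) and fell by 2.43 in WT (adjusted p = 0.00447). Of 18 tested proteoglycans of the cell surface and basement membrane, 6 rose and 2 fell in JP2CR and 6 rose and 3 fell in WT. Gpc6, a glypican, rose by 0.67 ± 0.13 and 0.68 ± 0.13, and Tgfbr3, betaglycan, fell by 0.56 and by 0.79. Of 10 lysosomal enzymes of sugar chain breakdown, 2 rose and 2 fell in JP2CR and 4 rose and 2 fell in WT, with Galns up by 0.82 ± 0.14 and 0.87 ± 0.14. The JP2CR counts of this list were near the shares of all tested genes (20.7% higher and 20.7% lower).

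**Figure D5:**
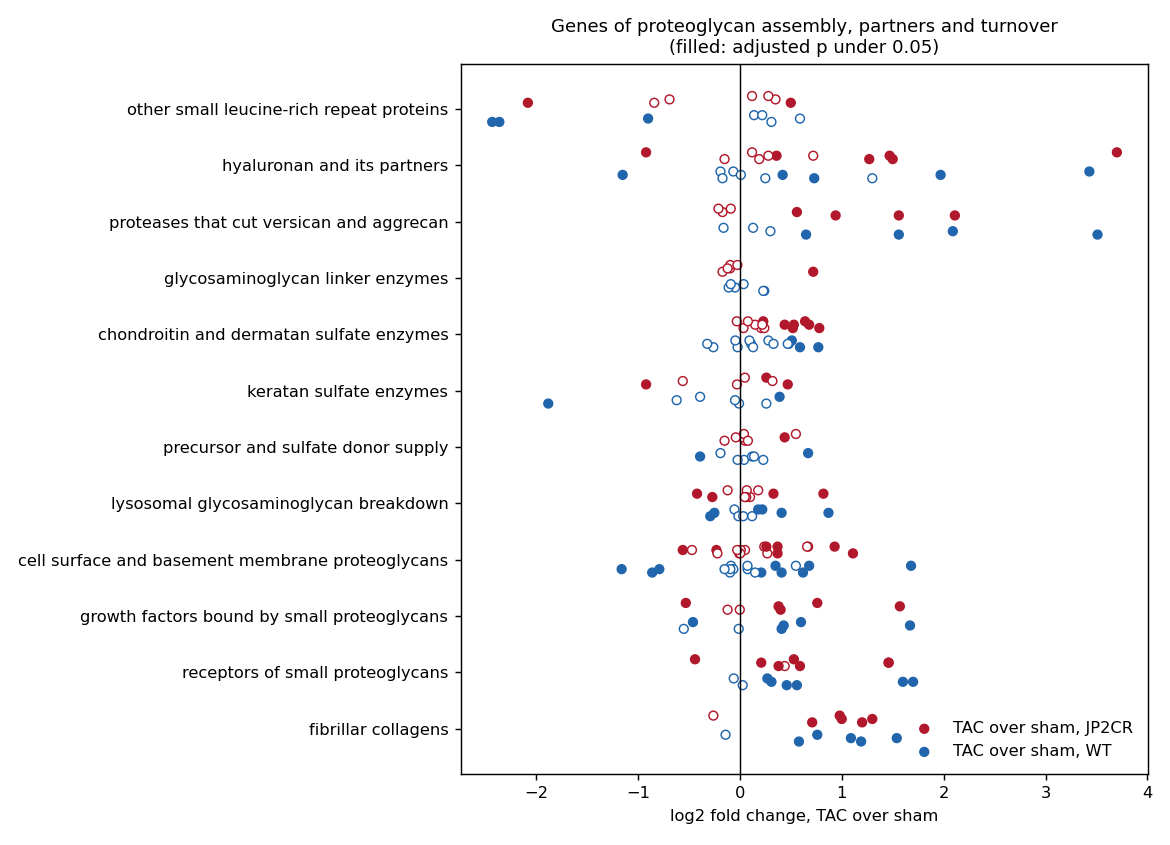
Log2 fold change of TAC over sham (horizontal axis) for each tested gene of 12 lists (rows), in JP2CR hearts (red) and WT hearts (blue); filled points have an adjusted p under 0.05. The fibrillar collagens, receptors and chondroitin and dermatan sulfate enzymes lie mostly to the right of 0, and the linker enzymes lie close to 0 apart from Xylt1 in JP2CR.

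Cell-type markers moved unevenly. Their counts stand beside the shares of all tested genes, of which 20.7% rose and 20.7% fell in JP2CR and 21.1% rose and 20.8% fell in WT. The summed CPM of the 12 fibroblast markers was 3534 to 3876 in JP2CR TAC and 3108 to 3793 in JP2CR sham libraries, and 3003 to 4073 in WT TAC and 3115 to 3674 in WT sham libraries, so it overlapped. Of these markers 5 rose and 3 fell in JP2CR and 5 rose and 2 fell in WT, and the collagen markers are among those that rose. Gsn, which fell in both genotypes, made up much of the sum. It averaged 1293 CPM in JP2CR TAC and 1901 CPM in JP2CR sham hearts, and 1136 CPM in WT TAC and 1914 CPM in WT sham hearts. The overlapping sums therefore mix falls and rises. The summed CPM of 8 activated fibroblast markers was 736 to 968 in JP2CR TAC and 339 to 513 in JP2CR sham libraries, and 933 to 1387 in WT TAC and 315 to 440 in WT sham libraries. Of these 8 markers 6 rose and 1 fell in each genotype. Postn, the matricellular protein periostin, averaged 400 CPM in JP2CR TAC and 56.5 CPM in JP2CR sham hearts, and 575 CPM in WT TAC and 65.2 CPM in WT sham hearts, and so made up much of the sum. Acta2, smooth muscle actin, fell by 1.17 in JP2CR and by 1.06 in WT on the log2 scale, and Fap was not called. The 12 valve and cartilage markers summed to 53.0 to 107 CPM in JP2CR TAC and 16.3 to 58.7 CPM in JP2CR sham libraries, and 86.9 to 108 CPM in WT TAC and 42.2 to 52.8 CPM in WT sham libraries, with Matn3 at 0 counts in both sham groups. Comp, a cartilage matrix protein, made up much of this sum at 42.1 CPM in JP2CR TAC and 11.2 CPM in JP2CR sham hearts, and 66.6 CPM in WT TAC and 14.8 CPM in WT sham hearts, while Chad and Cytl1 fell in WT. In WT TAC 1 to 4 the valve and cartilage sum was 86.9, 108, 102 and 95.1 CPM. Aggrecan was at 3.64, 0.664, 2.85 and 0.803 CPM there, a different order. The 8 mesothelial and epicardial markers summed to 85.2, 26.4, 58.9 and 33.3 CPM in these libraries, in aggrecan's order. The 8 atrial markers, at 326, 99.6, 214 and 119 CPM there, had the same order. In JP2CR sham libraries the atrial sum again had aggrecan's order and the mesothelial sum did not. Neither sum had aggrecan's order in WT sham or JP2CR TAC libraries. The 8 atrial markers summed to 426 to 680 CPM in JP2CR TAC and 159 to 2281 CPM in JP2CR sham libraries, and 99.6 to 326 CPM in WT TAC and 1464 to 2404 CPM in WT sham libraries. The 9 adipocyte markers summed to 2.9 to 103 CPM in JP2CR TAC and 5.76 to 275 CPM in JP2CR sham libraries, and 0.531 to 10.3 CPM in WT TAC and 25.4 to 239 CPM in WT sham libraries, with Ucp1 and Retn at 0 counts in WT TAC. Of 8 macrophage markers 7 rose in each genotype, with sums of 310 to 368 CPM in JP2CR TAC and 224 to 264 CPM in JP2CR sham libraries, and 299 to 317 CPM in WT TAC and 216 to 242 CPM in WT sham libraries. Of 9 smooth muscle and pericyte markers 4 fell in JP2CR and 6 in WT, with sums of 990 to 1203 CPM in JP2CR TAC and 1397 to 1491 CPM in JP2CR sham libraries, and 946 to 1171 CPM in WT TAC and 1325 to 1544 CPM in WT sham libraries. Of 9 heart muscle cell markers 6 fell and 1 rose in JP2CR and 5 fell and 1 rose in WT, and all 4 tested nerve and Schwann cell markers fell in both. Of 8 endothelial markers 1 rose and 2 fell in JP2CR and none was called in WT. The part of these cell types in the members' changes was not tested.

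In the authors' deposited table, 4 members were higher and 1 lower after TAC in JP2CR, with no adjusted p for Lum and Acan, and 7 were higher and 2 lower in WT. The share of all genes called in that table was not computed, so whether these counts are unusual there is not known. The authors' deposited table differs from the calls above for Lum in WT (adjusted p 0.0321) and for Fmod in JP2CR (adjusted p 0.0937). It called no member in the comparison of the sham groups, where 2 members had no adjusted p.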

How the data were processed

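Ventricle RNA was selected for poly(A) and the library kit marks strand, per the labels' protocols. The authors deposited raw counts, 1 whole number for each symbol and library. Tools listed in the submitters' processing notes are FastQC 1.0.0, Picard 1.128, STAR 2.5.0b, Cufflinks 2.2.1, bedtools 2.17.0 and DESeq2 1.6.3, with build mm10. How reads were assigned to genes, and whether strand was used, is not stated there. The authors' log2 fold changes and adjusted p-values, deposited in the same table without a stated method, are quoted only where that table is named; some fields of its sham comparison hold text (other values).

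Of 24421 entries, 13522 passed edgeR's filterByExpr. Counts were scaled by TMM and fitted with edgeR 4.0.16 in R 4.3.3, with 1 mean per group over 16 libraries. Each of 5 contrasts was tested by the quasi-likelihood F test with Benjamini-Hochberg adjustment over all tested genes. The SE is the log2 fold change divided by the square root of F. DESeq2 1.42.0 and limma 3.58.1 (voom) were alternatives, and the code was tested on simulated data. CPM scale each library's counts to a common total with TMM factors; CPM per kilobase uses the union of exons of protein-coding transcripts in GENCODE M21. Correlations use log2 CPM with a prior count of 2. Aggrecan passed the filter with few counts, and only through TAC libraries. A count of 3 corresponds to 0.181 to 0.301 CPM.

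Members and lists were chosen with earlier results of these data known. Besides the members, the rule names in each list the 3 smallest p in the WT TAC effect and the 2 smallest in the interaction. It also names the 3 nearest genes of each member. Not all are printed, and Col5a3, Pdgfa, Omd and Lyve1 were named after their values were seen. The labels do not tie libraries to named animals, so p-values measure the spread between libraries.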

Additional observations from a re-analysis of the deposited data

Results flagged for a closer look

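Of 40 sets of 4 libraries (10 genes in 4 groups), 2 had a library far from the others by Dixon's criterion, which chance alone meets in about 1 in 20 sets. Lumican was at 174 CPM in JP2CR sham 3, against 82.9 to 87.8 CPM in the other JP2CR sham libraries, so that its gap to the nearest library was 0.946 of the group's range (critical value 0.829). Biglycan was at 483 CPM in the same library, against 271 to 304 CPM in the others (0.847 of the range). Podocan was also highest there, at 131 CPM against 25.9 to 49.3 CPM. This library carried Xist at 189 CPM and no Y-linked counts. The cause was not tested.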

How the results depend on the processing

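Of 1282 recomputed values of single members, 1214 kept their direction and their side of the threshold, 9 lost the call and 6 gained it. The sign changed in 53, of which 0 were called with all libraries or under the alternative; 5 of these were TAC effects and 48 genotype differences. Leaving out 1 library at a time, 4 to 6 members were called higher and 1 to 2 lower in JP2CR, and 6 to 7 higher and 1 to 2 lower in WT. Without JP2CR TAC 3 and WT TAC 3 together, 4 members rose in JP2CR and 1 member fell in WT. Without the 3 libraries with Xist, 6 rose in JP2CR and 7 in WT. In the TAC comparisons, list counts of 4 or more moved by over 1.5 times in 2 cases, both without the TAC 3 libraries: 3 genes of hyaluronan and its partners rose in JP2CR and 2 lysosomal enzymes rose in WT. Smaller list counts moved by at most 2 genes. Without the Xist libraries, 6 adipocyte and 4 atrial markers were called higher for the interaction, against 0 of each with all libraries. Counts of members stayed at 0 for the interaction and both genotype comparisons under the alternatives run.

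Sign changes on the log2 scale were as follows. Leaving out 1 library at a time, the TAC effect ran from -0.05 to 0.40 for Lum and from -0.82 to 0.11 for Podn in JP2CR, and from -0.068 to 0.19 for Dcn in WT. The interaction ran from -0.098 to 0.16 for Dcn, -0.26 to 0.19 for Lum, -0.23 to 0.084 for Bgn, -0.49 to 0.022 for Fmod, -0.11 to 0.14 for Prelp and -0.11 to 0.29 for Vcan. JP2CR against WT after TAC ran from -0.18 to 0.076 for Dcn, -0.031 to 0.11 for Lum, -0.092 to 0.019 for Bgn, -0.04 to 0.11 for Ogn and -0.20 to 0.20 for Vcan. After sham it ran from -0.15 to 0.30 for Lum, -0.13 to 0.18 for Bgn, -0.058 to 0.16 for Aspn, -0.21 to 0.012 for Vcan, -0.31 to 0.10 for Acan and -0.73 to 0.19 for Podn. Without the Xist libraries the interaction was 0.22 for Lum, 0.11 for Bgn and -0.0042 for Vcan, JP2CR against WT was 0.021 for Bgn and 0.0062 for Vcan after TAC, and -0.17 for Lum, -0.086 for Bgn, -0.0079 for Aspn and 0.01 for Vcan after sham. The interaction of Prelp was -0.0048 with upper-quartile factors and -0.022 without the TAC 3 libraries, and JP2CR against WT after TAC was 0.019 for Vcan with limma voom and 0.011 with the replicate block.

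Over all tested genes the genotype comparisons depended more on the choices. The interaction had 12 genes higher and 4 lower, against 29 and 10 with no filter, 81 and 39 with DESeq2, 213 and 159 without the Xist libraries, 0 and 0 without the TAC 3 libraries, and 2 to 93 and 0 to 27 leaving out 1 library. JP2CR against WT after TAC had 49 higher and 39 lower, against 126 and 97 with DESeq2, 95 and 62 with only these groups fitted, 228 and 150 without the Xist libraries, 2 and 2 without the TAC 3 libraries, and 5 to 136 and 3 to 110 leaving out 1 library. After sham it had 0 higher and 13 lower, against 1 higher with upper-quartile factors, 3 and 22 with no filter, 14 and 39 with DESeq2, 20 and 44 without the Xist libraries, 6 lower without the TAC 3 libraries, and 0 to 5 and 5 to 27 leaving out 1 library. The cause was not tested.

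Same-numbered libraries did not deviate together more than others. Their correlations ran from -0.187 to 0.108, and those of differently numbered libraries from -0.223 to 0.221. Such correlations cannot show that the replicate numbers do not pair libraries, and the main fit used no pairing. With the replicate block, the interaction had 7 genes higher and 2 lower, and the sham comparison 2 higher and 20 lower; no call of a member changed. Depth limits aggrecan, with 2 to 47 counts per library.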
